A study of Mus musculus with 12 samples.

Results

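The 9 genes described here carry the insulin signal from the cell surface to glucose uptake. They are the receptor Insr, the adaptors Irs1 and Irs2, the regulatory phosphoinositide 3-kinase subunit Pik3r1, the kinases Akt1 and Akt2, the insulin-responsive glucose transporter GLUT4 (Slc2a4), and 2 regulators of its traffic, Tbc1d4 and Trarg1. They were chosen by symbol from 22151 genes in the authors' table, and all 9 had per-sample values and passed the filter on low counts, as did 17012 genes in all. The data are bulk RNA sequencing of the epididymal fat pad (eWAT, white fat beside the testis) of 12 mice, 1 library each. The labels give males of 12 to 14 weeks, of a strain written C57bl6 there and C57BL6/J in the design text, and name no transgene or mutation. The 4 sham mice had a laparotomy that spared the liver. The other mice were sampled 3 days (5 mice) or 7 days (3 mice) after 70% partial hepatectomy. No sampling day is labelled for sham, whose source field places them before hepatectomy, so time since surgery and hepatectomy cannot be told apart. The series title concerns systemic catabolism during organ repair, and the comparisons ask how the insulin pathway of a fat depot differed from sham while the liver regrew.

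In a fat cell, insulin binds its receptor, which phosphorylates the adaptors. Phosphoinositide 3-kinase docks on them and activates Akt. Akt2, the main isoform for glucose uptake in adipocytes, phosphorylates Tbc1d4 (AS160), a GTPase-activating protein that holds GLUT4 vesicles inside the cell until it is phosphorylated. Trarg1 is a protein of those vesicles in fat, where it promotes insulin-dependent delivery of GLUT4. The data are transcript levels only: phosphorylation, protein and transport of glucose were not measured.

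The adaptor genes are regulated at transcription, in mouse liver through FoxO factors, which insulin inhibits and which raise Irs2, and through E-box binding proteins. The 250 bases before the start site of each are shown because the 2 adaptors had unlike patterns across libraries (below). They are RefSeq sequences of build GRCm38.p6, 5′ to 3′ on the gene's strand, at chr1:82291440-82291689 (minus strand) for Irs1 and at chr8:11008930-11009179 (minus strand) for Irs2. Capitals mark the E-box CACGTG, a palindrome, and the FoxO core AAACAA, here as its reverse complement TTGTTT.
Irs1: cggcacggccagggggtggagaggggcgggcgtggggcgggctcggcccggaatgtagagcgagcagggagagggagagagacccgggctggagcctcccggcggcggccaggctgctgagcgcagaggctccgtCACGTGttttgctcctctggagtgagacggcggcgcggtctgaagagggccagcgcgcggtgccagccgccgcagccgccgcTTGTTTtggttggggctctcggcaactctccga
Irs2: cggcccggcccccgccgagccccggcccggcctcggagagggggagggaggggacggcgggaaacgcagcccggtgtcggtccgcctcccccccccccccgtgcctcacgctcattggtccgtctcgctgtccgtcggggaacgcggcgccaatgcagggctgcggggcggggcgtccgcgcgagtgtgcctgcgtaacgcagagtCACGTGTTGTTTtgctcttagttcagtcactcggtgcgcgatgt
In Irs1 the E-box began 115 bases and the FoxO core 33 bases before the start. In Irs2 they began 44 and 38 bases before it, so that the second follows the first with no base between them. The core occurred, on either strand, in 18.3% and the E-box in 6.02% of 32851 promoters of this length, and both in 0.794%. The 2 motifs back to back in this orientation occurred in 3 promoters, a count made after the Irs2 sequence had been seen. Letters that match a motif do not show that a factor was bound. Both adaptors held both motifs, so the presence of the motifs does not set the 2 genes apart. RefSeq promoters were at hand for 6 of the 9 genes, Insr, Slc2a4 and Trarg1 being the others. Outside the adaptors, Akt1 and Pik3r1 had 2 promoters each, Akt2 had 4 and Tbc1d4 had 1. The core also occurred in Akt1 promoter 1, in Akt2 promoters 1 and 4 and in the Tbc1d4 promoter, but not in those of Pik3r1. Its 7 matches in Akt2 promoter 4 overlapped in 1 repeat. With unequal numbers of promoters, the genes are not compared by presence of the core. The E-box occurred in none of these promoters.

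Library totals ran from 13128832 to 23474247 counts, and levels are given as CPM, counts relative to a library size scaled by TMM (a trimmed mean of gene-wise ratios). Fat tissue was checked by 12 adipocyte markers, whose summed level was between 22001 and 57750 CPM in every library. The depot itself was taken from the labels. The 7 epididymis markers had no per-sample values, so no level can be given for them. A score, the mean log2 CPM of the adipocyte markers relative to each marker's mean over the 12 libraries, ran from -0.19 to 0.59 in sham, from -0.56 to 0.85 at day 3 and from -1.62 to 0.77 at day 7. In bulk tissue, fewer cells of a type and less RNA per cell cannot be told apart. Some libraries stood apart. Day 3 library 5 had its highest correlation with day 7 library 2 (r = 0.957 over genes), and day 7 library 1 with day 3 library 2 (r = 0.936). Sham library 4 held hepatocyte transcripts (Alb at 2315 CPM, at most 5.99 CPM in the other sham libraries). Day 7 libraries 1 and 2 held fewer. Alb was at 192 CPM in day 7 library 2 and at most 24.6 CPM in the other hepatectomy libraries. Apoa1 and Fga were instead higher in day 7 library 1 than in library 2 (Fga at 28.7 and 26.4 CPM). The 5 hepatocyte markers tested summed to 106, 312 and 3.61 CPM in day 7 libraries 1 to 3, and to at most 46.5 CPM at day 3. Day 3 library 1, labelled male, had Xist at 359 CPM and Ddx3y at 0.643 CPM. In every other library Xist was at most 1.84 CPM and Ddx3y at least 81.1 CPM. The sex-linked transcripts of day 3 library 1 thus conflict with its label, and the identity of that sample was not tested. Without sham library 4 and day 3 library 1 the log2 difference from sham was 0.87 for Irs2, -0.86 for Tbc1d4 and -0.35 for Slc2a4 at day 3 and -1.04 for Trarg1 at day 7 (edgeR adjusted p from 0.872 to 0.976). Without day 7 library 2 it was 0.45 for Pik3r1 and 0.20 for Irs1 at day 7. Without day 7 library 1 these differences were 1.43 and 0.99.

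Across the 9 genes, 0 passed an adjusted p of 0.05 in edgeR's quasi-likelihood test at day 3 or day 7 against sham, or at day 7 against day 3. The background was equally sparse: 0.00588% of the genes tested passed at day 3, 0% at day 7 and 0% between the days. At an unadjusted p under 0.05 the counts were 0, 1 and 1 of 9, against 10.9%, 6.26% and 3.34% of all genes. The lowest adjusted p of any of the 9 was 0.458 at day 3 (Irs2) and 0.662 at day 7 (Trarg1). It was 0.999 between the days, 0.142 over the 3 comparisons with DESeq2 and 0.105 with voom. The median log2 difference over the 9 genes was -0.08 at day 3 (4 positive, 5 negative) and 0.23 at day 7 (5 positive, 4 negative), where the median over all genes was -0.02 and 0.01. The values below are given library by library, in the order of the library numbers.

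**Figure D1:**
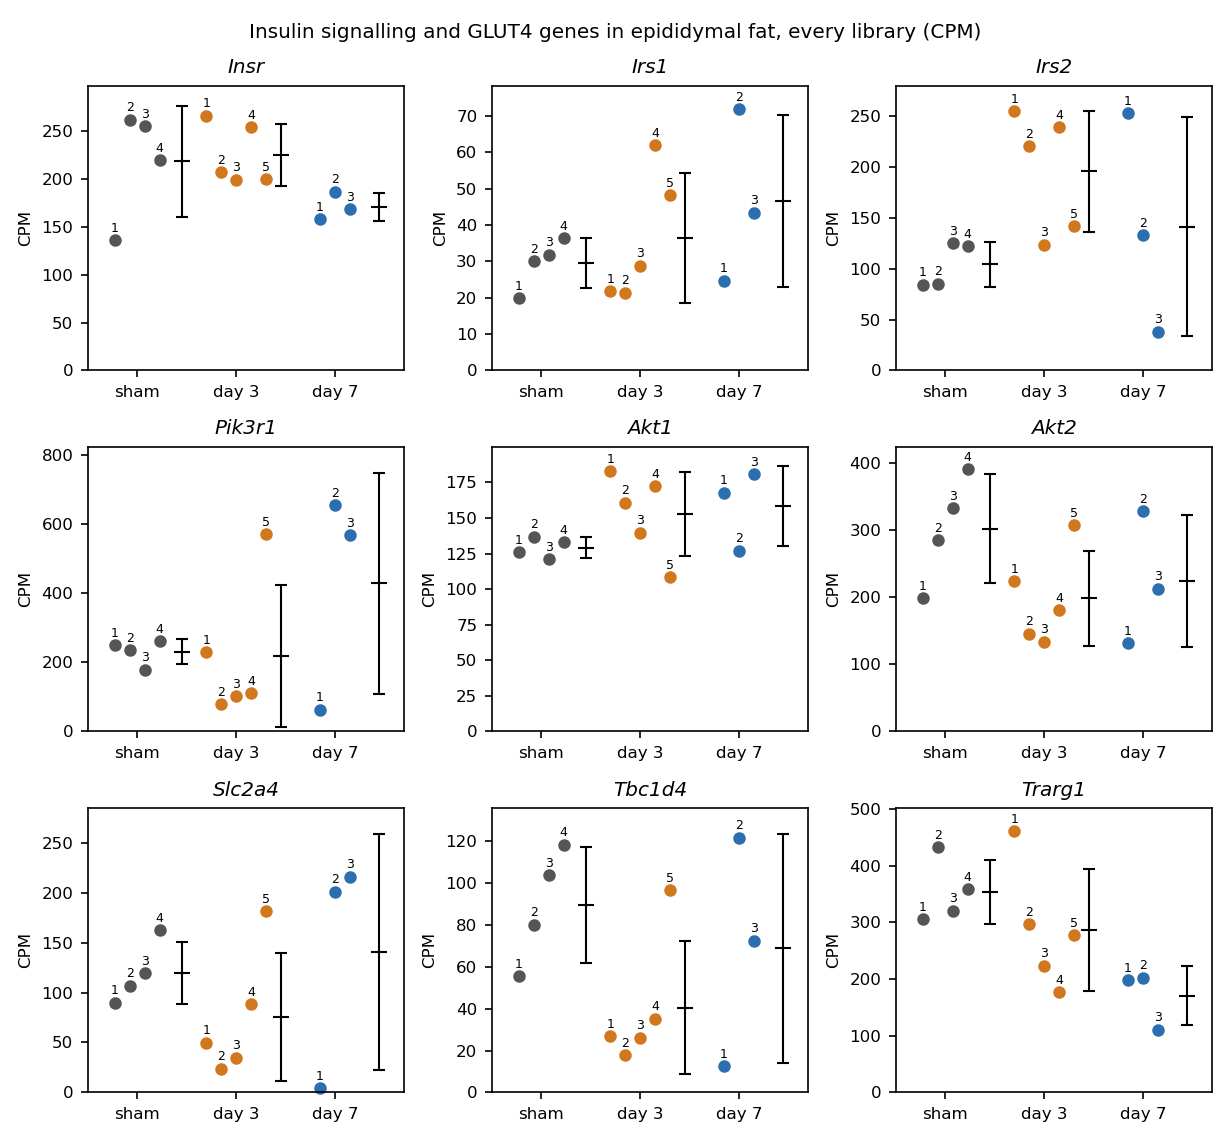
CPM of each of the 9 genes in every library, on linear axes from 0; points are libraries with their number, and the bar beside each group is its mean ± SD (4 sham, 5 day 3 and 3 day 7 libraries). Slc2a4 runs from 4.54 to 216 CPM, while Akt1 stays between 109 and 183 CPM.

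The receptor Insr was one of the steadier genes. It stood at 136, 262, 255 and 219.7 CPM in sham, at 266, 207, 199, 254 and 199.9 CPM at day 3, and at 158, 187 and 168 CPM at day 7. Day 3 lay inside the sham range or just above it, and each day 7 library was below every day 3 library and within the sham range. The log2 difference was 0.05 at day 3 (SE 0.208; edgeR adjusted p = 0.949) and -0.35 at day 7 (SE 0.238; adjusted p = 0.867). Between day 7 and day 3 it was -0.40 (95% confidence interval -0.89 to 0.10; adjusted p = 0.999). Of the 9 genes, 1 had non-overlapping groups in that comparison, where 2.72% of all genes did and 1.37% did in the lower direction. Igf1r, the related receptor for insulin-like growth factor 1, averaged 33.1 ± 4.87 CPM in sham (SD, n = 4), 36.03 ± 10.8 CPM at day 3 (n = 5) and 33.8 ± 17.1 CPM at day 7 (n = 3).

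Among the adaptors, Irs2 was the more variable. It stood at 84.4, 85.3, 125 and 122 CPM in sham, at 255, 220.0, 123, 239 and 141 CPM at day 3, and at 253, 133 and 38.1 CPM at day 7. At day 3, 4 of 5 libraries were above all sham libraries; at day 7 the 3 libraries spread from above every sham library to below every one. The mean was 104 ± 22.3 CPM in sham and 196 ± 59.4 CPM at day 3, a 1.88-fold estimate with a log2 difference of 0.91 (SE 0.423, 95% interval -0.01 to 1.83; unadjusted p = 0.0513, edgeR adjusted p = 0.458). In the authors' deposited table the same difference was 0.90, with p = 0.0301 and a false discovery rate (FDR) of 0.383. At day 7 the log2 difference was 0.44 (SE 0.470; edgeR adjusted p = 0.917), and -0.25 without day 7 library 1. The 3 genes most alike in pattern to Irs2 over the 12 libraries were Pim3, a serine/threonine kinase (r = 0.921), Zbtb10 (r = 0.903) and Prkar1a, a regulatory subunit of protein kinase A (r = 0.898).

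Irs1, the adaptor held to be the main one for GLUT4 translocation in adipocytes, followed another course. It stood at 19.8, 30.1, 31.8 and 36.4 CPM in sham, at 21.7, 21.4, 28.8, 62.0 and 48.1 CPM at day 3, and at 24.6, 71.8 and 43.4 CPM at day 7. The 2 highest libraries of each hepatectomy group were above all sham libraries and the rest within the sham range. The log2 difference was 0.30 at day 3 (SE 0.372; edgeR adjusted p = 0.784) and 0.66 at day 7 (SE 0.419; adjusted p = 0.860). Irs1 lies over Gm9747 on the opposite strand, which held 9903 counts in the 12 libraries, and without known strandedness the reads of the pair cannot be told apart. Genes that overlap Irs2 and Pik3r1 held 60 and 89 counts in all. Irs1 and Irs2 were not correlated across libraries beyond the permutation spread (r = -0.14, rho = -0.05; permutation p = 0.677 and 0.887, adjusted 0.782 and 0.928; n = 12).

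Pik3r1, which encodes the p85α, p55α and p50α subunits that dock on the adaptors, split the hepatectomy groups. It stood at 249, 236, 179 and 261 CPM in sham, at 229.7, 79.6, 102, 111 and 569.8 CPM at day 3, and at 63.3, 654 and 567 CPM at day 7. Sham libraries kept within a 1.46-fold range; at each later day some libraries were below all of sham (3 of 5, then 1 of 3) and others above all of it (1 of 5, then 2 of 3). Group means of 231 ± 36.5, 218 ± 205 and 428 ± 319 CPM stand over that split. The log2 difference was -0.08 at day 3 (SE 0.650; edgeR adjusted p = 0.974) and 0.89 at day 7 (SE 0.736; adjusted p = 0.884). Leaving out day 3 library 5 gave -0.85 at day 3 (adjusted p = 0.436), and leaving out day 7 library 1 gave 1.43 at day 7 (adjusted p = 1).

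The Akt kinases differed in how much they varied. Akt1, the widely expressed isoform tied to growth and survival, stood at 126, 137, 121 and 133 CPM in sham, at 183, 161, 139.7, 173 and 109 CPM at day 3, and at 168, 127 and 181 CPM at day 7. At day 3, 4 of 5 libraries were above all of sham and 1 below it; at day 7, 2 of 3 were above it. The log2 difference was 0.24 at day 3 (SE 0.184, 95% interval -0.16 to 0.64; edgeR adjusted p = 0.629) and 0.29 at day 7 (SE 0.208, 95% interval -0.15 to 0.74; adjusted p = 0.875). Its SD of log2 CPM within groups was 0.24, smaller than in all but 12.5% of genes with a mean of at least 1 CPM, whose median SD was 0.48.

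Akt2 stood at 199, 285, 333 and 389.7 CPM in sham, at 224, 145, 133, 181 and 307 CPM at day 3, and at 132, 328 and 212 CPM at day 7. At day 3, 3 of 5 libraries were below all of sham, and at day 7 1 of 3 was. The mean was 301 ± 80.8 CPM in sham and 198 ± 70.5 CPM at day 3, with a log2 difference of -0.61 (SE 0.314, 95% interval -1.29 to 0.07; edgeR adjusted p = 0.489), and of -0.85 without day 3 library 5 (adjusted p = 0.191). At day 7 it was -0.43 (SE 0.363; adjusted p = 0.886). The within-library log2 ratio of Akt2 to Akt1 counts, which is free of library scaling, averaged 1.18 ± 0.41 in sham, 0.33 ± 0.68 at day 3 and 0.42 ± 0.87 at day 7. The difference at day 3 was -0.85 (two-sided exact permutation p = 0.0794, adjusted 0.595 over the 15 ratio tests). Counts are not divided by gene length, so only the difference between libraries is read, not the level of the ratio.

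Slc2a4, the GLUT4 gene (mm39 chr11:69833365-69839014, minus strand), had the widest range of the 9. It stood at 89.7, 107, 119 and 162 CPM in sham, at 49.9, 23.7, 34.8, 88.2 and 182 CPM at day 3, and at 4.54, 201 and 216 CPM at day 7. At day 3, 4 of 5 libraries were below every sham library and library 5 above every one; at day 7 library 1 was far below and the other 2 above all of sham. Day 7 library 1 held 72 Slc2a4 counts and library 3 held 3288, a 47.6-fold difference in CPM within 1 group. The log2 difference from sham was -0.66 at day 3 (SE 0.792, 95% interval -2.38 to 1.06; edgeR adjusted p = 0.777) and 0.23 at day 7 (SE 0.902, 95% interval -1.73 to 2.19; adjusted p = 0.983). Without day 3 library 5 the first was -1.31 (adjusted p = 0.396). Without day 7 library 1 the second was 0.82 (adjusted p = 1), and without day 7 library 3 it was -0.17. The within-group SD of log2 CPM was 1.69, larger than in 95.3% of genes.

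Tbc1d4 stood at 55.6, 80.2, 104 and 118 CPM in sham, at 26.7, 17.7, 26.2, 35.3 and 96.6 CPM at day 3, and at 12.4, 122 and 72.5 CPM at day 7. At day 3, 4 of 5 libraries were below all of sham and library 5 within its range; at day 7 the 3 libraries were below, above and within it. The mean was 89.5 ± 27.6 CPM in sham and 40.5 ± 31.95 CPM at day 3, a 0.453-fold estimate with a log2 difference of -1.14 (SE 0.584, 95% interval -2.41 to 0.13; edgeR adjusted p = 0.483). Without day 3 library 5 it was -1.78 (adjusted p = 0.145). The authors' deposited table gives -1.14 with p = 0.0400 and an FDR of 0.428. At day 7 the log2 difference was -0.38 (SE 0.671; edgeR adjusted p = 0.958), and 0.14 without day 7 library 1.

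Trarg1 (mm39 chr11:76570634-76589490, plus strand) had the lowest p of the 9 genes at day 7. It stood at 306, 432, 320.2 and 358 CPM in sham, at 460.1, 297, 223, 177 and 277 CPM at day 3, and at 198, 202 and 111 CPM at day 7. All 3 day 7 libraries were below all 4 sham libraries, and 4 of 5 day 3 libraries were also below them, with day 3 library 1 above them all. The mean was 354 ± 56.4 CPM in sham (n = 4), 287 ± 108 CPM at day 3 (n = 5) and 170 ± 51.7 CPM at day 7 (n = 3). The log2 difference was -0.30 at day 3 (SE 0.279; edgeR adjusted p = 0.698) and -1.05 at day 7, a 0.481-fold estimate (SE 0.328, 95% interval -1.76 to -0.35; unadjusted p = 0.00678, edgeR adjusted p = 0.662). Without day 3 library 1, the library with high Xist, the day 3 difference was -0.55 (SE 0.254, edgeR adjusted p = 0.636). Of the 9 genes 1 had day 7 and sham groups that did not overlap, where 6.9% of all genes did and 4.07% did in the lower direction; at day 3 it was 0 of 9, where 3.72% did. Leaving out each library in turn kept the day 7 difference between -1.20 and -0.80. In the authors' deposited table it was -1.04, with p = 0.00193 and an FDR of 0.222.

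**Figure D2:**
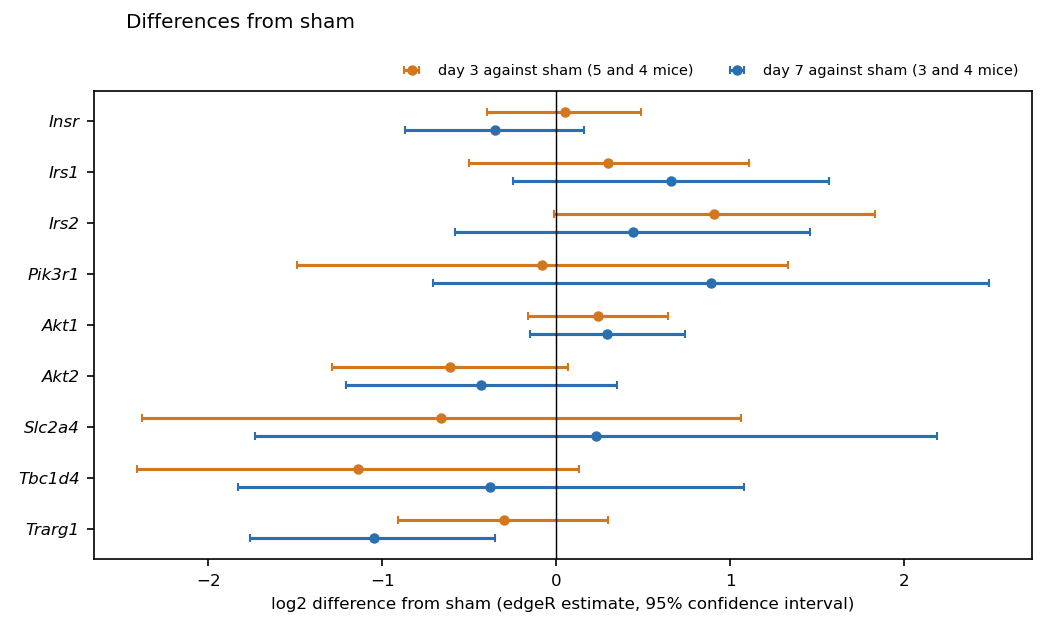
Log2 difference from sham for each of the 9 genes at day 3 and day 7; points are edgeR estimates and bars their 95% confidence intervals, with no adjustment over genes. The interval of Trarg1 at day 7 (-1.76 to -0.35) lies below 0, and every other interval crosses 0.

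Markers of the mesothelium, the covering layer of the fat pad, were also lower at day 7: all 7 had a negative log2 difference from sham (median -1.37), 6 of them without overlap, where 6.9% of all genes had none and 4.07% in the lower direction. Their summed level was 813 to 1210 CPM in sham, 624 to 894 CPM at day 3 and 241 to 764 CPM at day 7, with 0 of 7 past an adjusted p of 0.05. Markers of other cell types also differed from sham in their estimates, with 0 past an adjusted p of 0.05 in edgeR. All 8 macrophage markers were positive at day 7 (median 0.54), and 2 had an unadjusted p under 0.05, where 6.26% of all genes had one. Their summed level was 1193 to 2735 CPM in sham and 919 to 2454 CPM at day 3. In day 7 libraries 1 to 3 it was 1816, 1005 and 5695 CPM, within, below and above the sham range. All 6 red cell markers were positive at day 3 (median 2.17; 5 with an unadjusted p under 0.05, where 10.9% of all genes had one), at 1474 to 4529 CPM in sham and 1796 to 27792 CPM at day 3. All 6 B cell markers tested were negative at day 3 (median -3.18), and 5 had an unadjusted p under 0.05, where 10.9% of all genes had one. Their summed level was 19.6 to 245 CPM in sham and 5.01 to 162 CPM at day 3. The part of these cell types in the differences of Trarg1 and the other 8 genes was not tested. The adipocyte score did not go with Trarg1 (r = 0.06, rho = 0.06; permutation p = 0.862 and 0.870, adjusted 0.882 and 0.928; n = 12). The genes most alike in pattern to Trarg1 were Zbtb7c (r = 0.901), Klf14, a transcription factor of adipose tissue (r = 0.900), and Neo1, the receptor neogenin (r = 0.891). Within groups their r was 0.924, 0.780 and 0.743, and Klf14 was low, at 0 to 8.91 CPM.

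Slc2a4, Tbc1d4, Akt2 and Pik3r1 went up and down together from mouse to mouse. Over the 12 libraries Pearson's r of log2 CPM was 0.91 for Slc2a4 with Tbc1d4 (rho = 0.87), 0.92 for Akt2 with Tbc1d4 (rho = 0.93) and 0.84 for Pik3r1 with Slc2a4 (rho = 0.92). It was 0.81 for Pik3r1 with Tbc1d4 (rho = 0.82), 0.78 for Akt2 with Slc2a4 (rho = 0.76) and 0.72 for Pik3r1 with Akt2 (rho = 0.71). Permutation p-values adjusted over 45 relations ranged from 0.00045 to 0.0457 for r and from 0.0018 to 0.052 for rho, the highest of each being those of Pik3r1 with Akt2. Without the 2 libraries farthest from the median of the first gene, r was between 0.54 and 0.89, and within groups, after each group's mean was taken out, between 0.77 and 0.94. Such a pattern was common: 8.4% of 15020 genes reached r of 0.75 with Slc2a4 and 11.0% with Tbc1d4.

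The same 4 genes followed the adipocyte score. Their r with the adipocyte score was 0.86 for Pik3r1 (rho = 0.77), 0.83 for Slc2a4 (rho = 0.83), 0.79 for Tbc1d4 (rho = 0.77) and 0.76 for Akt2 (rho = 0.77). The permutation p-values adjusted over the 45 relations ran from 0.00304 to 0.015 for r and from 0.0156 to 0.0289 for rho. Without the 2 farthest libraries r was 0.84, 0.70, 0.68 and 0.75, and within groups 0.90, 0.88, 0.93 and 0.90. For the other 5 genes the adjusted p was above the threshold, with r of 0.56 for Irs1, 0.30 for Insr, 0.06 for Trarg1, -0.34 for Irs2 and -0.46 for Akt1. The adipocyte score was 0.05, -0.32, -0.49, -0.56 and 0.85 in day 3 libraries 1 to 5 and -1.62, 0.77 and 0.16 in day 7 libraries 1 to 3, so that day 3 library 5 was highest and day 7 library 1 lowest of its group for both the score and Slc2a4. The part of adipocyte content in the levels of these genes was not tested. The markers within the score did not all go the same way. At day 3, 4 markers had a positive log2 difference from sham and 8 had a negative difference. At day 7 these counts were 3 and 9. In day 7 library 1 Fabp4 was above all sham libraries (11444 CPM), and Plin4 and Retn were within the sham range. The other markers of the score were below all sham libraries there, among them Adipoq (328 CPM), Lpl (1726 CPM), Dgat2 (66.3 CPM) and Acvr1c (8.13 CPM). Of 15020 genes, 5.43% reached r of 0.75 with this score.

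**Figure D3:**
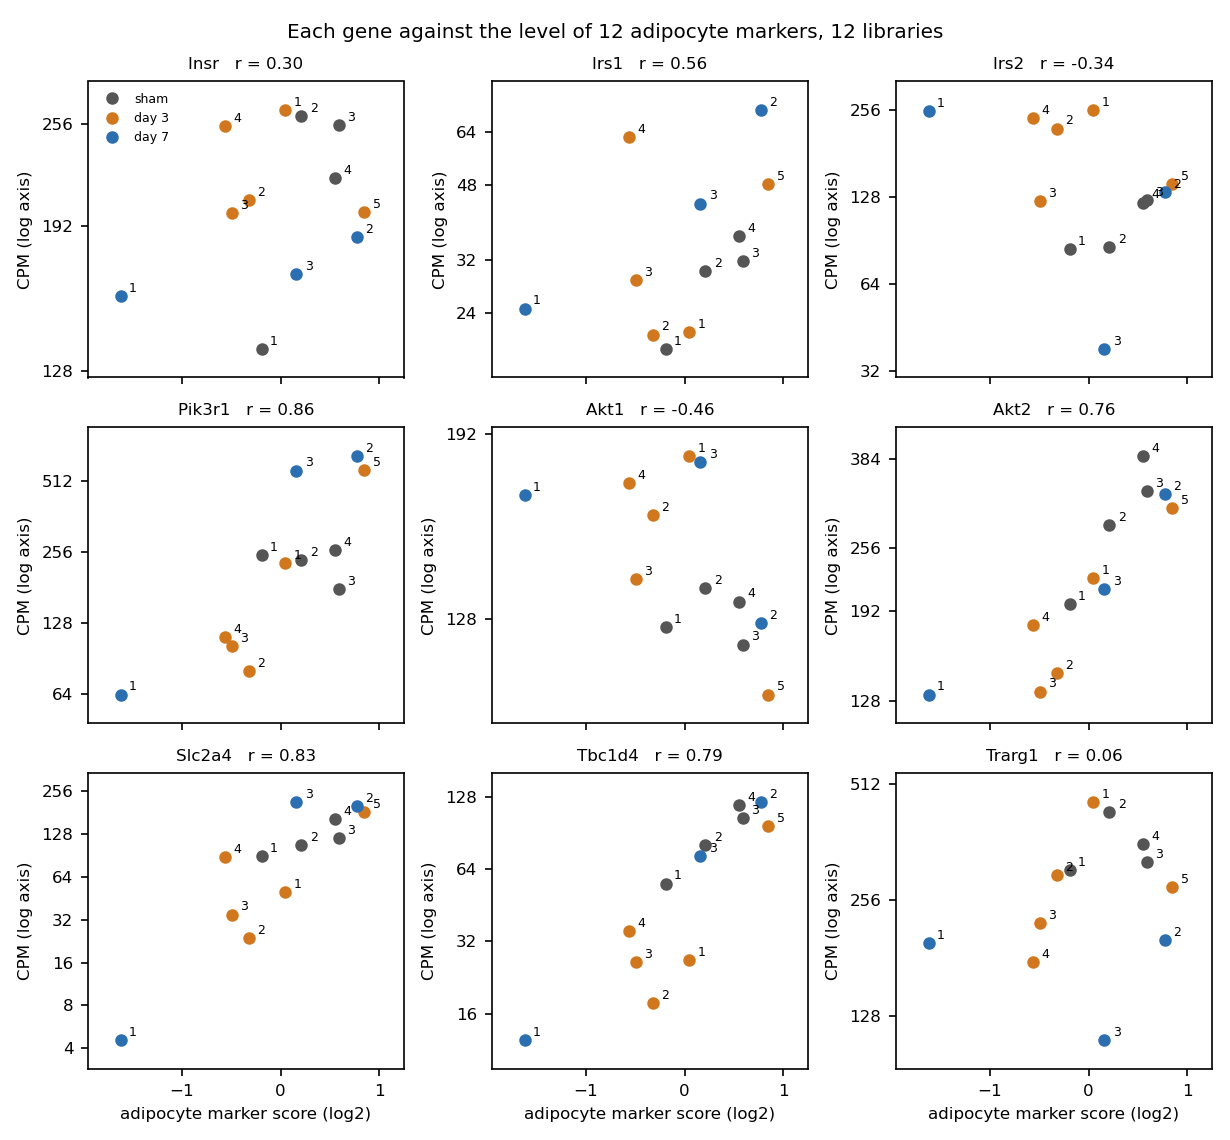
CPM of each gene (log axis) against the adipocyte marker score (mean log2 CPM of 12 markers, relative to their mean over libraries); points are the 12 libraries with their number, coloured by group, and r is Pearson's. Pik3r1, Slc2a4, Tbc1d4 and Akt2 climb with the score (r from 0.76 to 0.86), while Trarg1 has r of 0.06.

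**Figure D4:**
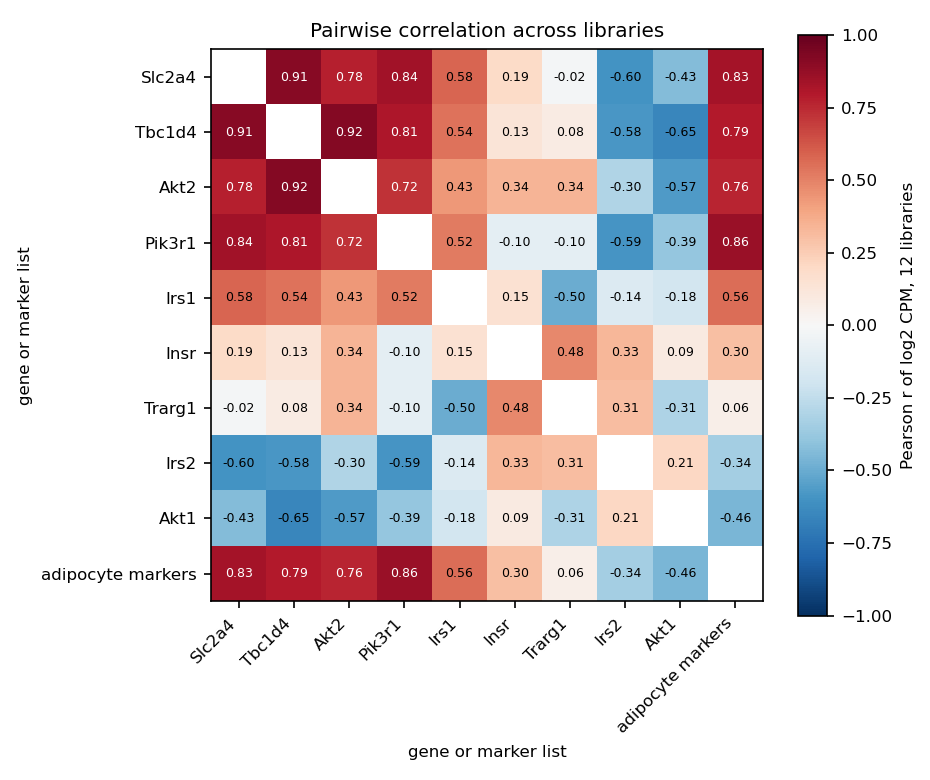
Pearson's r of log2 CPM over 12 libraries for every pair of the 9 genes and for each gene with the adipocyte score; red is positive and blue negative. Slc2a4, Tbc1d4, Akt2 and Pik3r1 form a block with r from 0.72 to 0.92, and Irs2 and Akt1 have negative r with all 4.

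Irs2 and Akt1 had the opposite sign to these 4 genes. Irs2 had r of -0.60 with Slc2a4, -0.59 with Pik3r1 and -0.58 with Tbc1d4 (permutation p adjusted over 45 relations 0.14 for each), and Akt1 had r of -0.65 with Tbc1d4 (adjusted p = 0.11). None of these passed the threshold. The genes most alike in pattern to Slc2a4 were A530016L24Rik (r = 0.974), Btbd6 (r = 0.968) and Islr (r = 0.967). Those most like Tbc1d4 were Dhdh (r = 0.986), B3galt2 and Cog4 (both r = 0.978), and those most like Akt2 were Nat8l, the aspartate N-acetyltransferase (r = 0.960), Acp5 (r = 0.956) and Cgnl1 (r = 0.955). Pik3r1 was most like Gm28438 (r = 0.966), Pank3, a pantothenate kinase of coenzyme A synthesis (r = 0.961), and Ddhd2 (r = 0.943). Akt1 was most like Clec10a, a lectin of macrophages (r = 0.979), Slc6a6, the taurine transporter (r = 0.960), and Ttc7 (r = 0.920). Irs1 was most like Ppp1r1b (r = 0.930, at only 0 to 4.56 CPM), Trappc9 (r = 0.861) and Dhrs11 (r = 0.860). Insr was most like Klb, the FGF21 co-receptor (r = 0.906), Nub1 (r = 0.888) and Tmem245 (r = 0.877). Each was taken from the 15020 genes with a mean of at least 1 CPM.

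Slc2a1 encodes GLUT1, a glucose transporter of broad expression that does not depend on insulin. It stood at 21, 20.4, 11.9 and 8.93 CPM in sham, at 35.9, 141, 46.5, 63.9 and 16.9 CPM at day 3, and at 315, 22.4 and 27.7 CPM at day 7. At day 3, 4 of 5 libraries were above all of sham and at day 7 all 3 were, where 6.9% of all genes had day 7 and sham groups without overlap. The libraries with the least Slc2a4 had the most Slc2a1: day 7 library 1 was lowest of 12 for the one and highest for the other, and day 3 library 2 second in both orders. The log2 difference of Slc2a1 was 1.97 at day 3 (SE 0.807; unadjusted p = 0.0311, edgeR adjusted p = 0.427) and 2.97 at day 7 (SE 0.894; unadjusted p = 0.00606, adjusted p = 0.632). The within-library log2 ratio of Slc2a4 to Slc2a1 averaged 3.00 ± 0.95 in sham, 0.27 ± 2.15 at day 3 and 0.01 ± 5.30 at day 7. At day 3 the difference was -2.72 (two-sided exact permutation p = 0.0635, adjusted 0.595). At day 7 it was -2.99 (exact permutation p = 0.457, adjusted 0.943), and 0.07 without day 7 library 1.

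**Figure D5:**
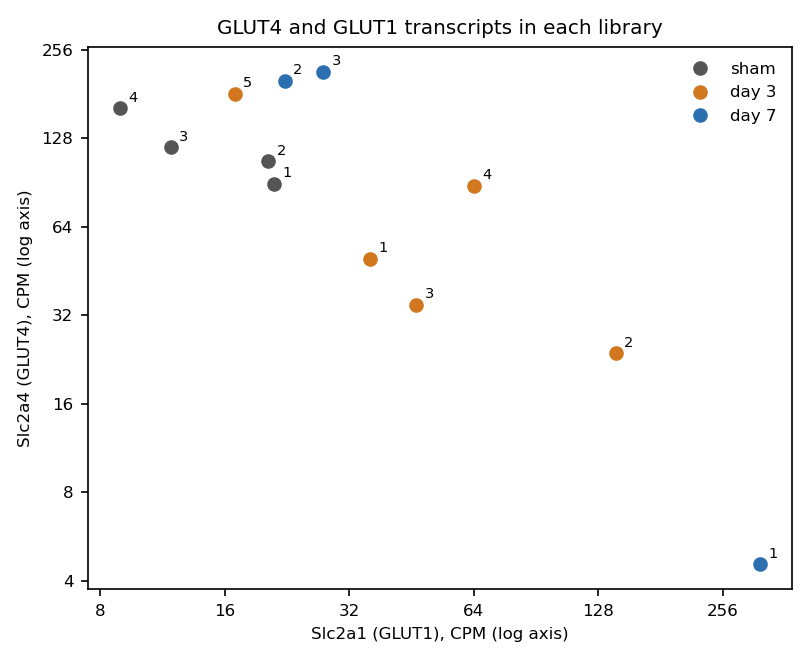
Slc2a4 against Slc2a1 in each of the 12 libraries, both in CPM on log axes; points carry the library number and are coloured by group. Day 7 library 1 (4.54 CPM Slc2a4, 315 CPM Slc2a1) lies at the far lower right, while day 7 libraries 2 and 3 lie above all sham libraries on the Slc2a4 axis.

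The 5 within-library ratios (Irs1 to Irs2, Akt2 to Akt1, Slc2a4 to Slc2a1, Trarg1 to Slc2a4, Insr to Igf1r) gave 15 tests over the 3 comparisons, and 0 passed, with adjusted p from 0.595 to 1. The smallest p an exact permutation test can give here is 0.0159 for day 3 against sham, 0.0571 for day 7 against sham and 0.0357 for day 7 against day 3, before adjustment. After adjustment over the 15 tests no ratio at day 7, against sham or day 3, could pass the threshold, and a ratio at day 3 could only if all 5 ratios there had that smallest p, so the count of 0 carries little information. The log2 ratio of Irs1 to Irs2 was -2.09, -1.50, -1.97 and -1.74 in sham, -3.55, -3.36, -2.10, -1.94 and -1.55 at day 3, and -3.36, -0.89 and 0.19 at day 7. Day 3 libraries 1 and 2 and day 7 library 1 were below the sham range, and day 7 libraries 2 and 3 above it.

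The pathway lists below hold the 9 genes at their places and so count them again. By edgeR adjusted p over all genes, 0 genes passed in every list, in either direction and at either day. Over all genes tested, 48.3% had a positive log2 difference at day 3 and 50.7% at day 7. Around the receptor, 9 of 11 genes had a positive log2 difference at day 3 (median 0.23) and 8 of 11 at day 7 (median 0.20). Among them the adaptor Shc1 had 0.33 and 0.34 and the adaptor Grb2 0.29 and 0.35. Of 7 phosphoinositide 3-kinase subunits 6 were negative at day 3 (median -0.44) and 3 at day 7 (median 0.21). Pik3r3, the p55γ regulatory subunit, averaged 23.2 ± 7.72 CPM in sham and 13.4 ± 3.32 CPM at day 7 with no overlap (log2 -0.79; unadjusted p = 0.0525, edgeR adjusted p = 0.803). Of the 7 subunits, 1 had no overlap at day 7, where 6.9% of all genes had none and 4.07% in the lower direction. Of 8 kinases of the Akt step 5 were positive at day 3 (median 0.18), with Mtor at 0.31 and Rictor at 0.26, and 4 at day 7 (median -0.03). Of 15 Akt substrates and mTORC1 genes 8 were positive at both days (median 0.10 and 0.02). Rheb, the GTPase that activates mTORC1, had 0.58 at day 3 (unadjusted p = 0.0130, edgeR adjusted p = 0.408), and Tbc1d1, the relative of Tbc1d4, had 0.67 and 0.66, opposite in sign to Tbc1d4.

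Of 14 negative regulators 10 were positive at day 3 (median 0.24) and 8 at day 7 (median 0.03). Trib3, a pseudokinase that binds Akt, stood at 0, 6.78, 6.52 and 3.61 CPM in sham, at 13.7, 31.6, 18.98, 45.9 and 5.37 CPM at day 3, and at 99.1, 4.83 and 7.81 CPM at day 7. Day 3 libraries 1 to 4 and day 7 libraries 1 and 3 were above all of sham. Its log2 difference was 2.46 at day 3 (edgeR adjusted p = 0.460) and 3.15 at day 7 (adjusted p = 0.768). The receptor phosphatase Ptprf had -0.45 and -0.46, and the lipid phosphatases Inppl1 and Inpp5k had -0.60 and 0.35 at day 3. Phlpp2, which dephosphorylates Akt, averaged 26.3 ± 1.82 CPM in sham and 19.1 ± 3.89 CPM at day 7 with no overlap (edgeR adjusted p = 0.833). Of the 14 regulators, 1 had no overlap at day 7, where 6.9% of all genes had none and 4.07% in the lower direction.

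Of 27 genes of GLUT4 vesicles and their traffic 18 were positive at day 3 and 16 at day 7 (median 0.09 and 0.08). Rab10, the GTPase on which Tbc1d4 acts in adipocytes, stood at 161, 179, 130.1 and 183 CPM in sham, at 225, 239.8, 220.0, 194 and 189 CPM at day 3, and at 205, 208 and 191 CPM at day 7. All 8 hepatectomy libraries were above all 4 sham libraries. The difference of day 3 from sham was 0.39 on the log2 scale (SE 0.162; unadjusted p = 0.0324, edgeR adjusted p = 0.428) and that of day 7 was 0.30 (SE 0.183; adjusted p = 0.852). Of the 27 genes, 1 had no overlap with sham at day 3, where 3.72% of all genes had none. At day 7, 1 was higher and 1 lower without overlap, where 6.9% of all genes had none. The share of all genes that stood apart at both days was not computed. Rab4b, an endosomal GTPase, had 0.65 at day 3 (unadjusted p = 0.00551, edgeR adjusted p = 0.403). Doc2b, a calcium sensor of vesicle fusion, had 1.54 and Stxbp4 (Synip), a syntaxin 4 binding protein, -1.25 at day 3 (unadjusted p = 0.0182 and 0.0134, edgeR adjusted p = 0.412 and 0.409). Both were low and overlapped sham. Doc2b ran from 3.52 to 6.76 CPM in sham and from 3.91 to 33.1 CPM at day 3. Stxbp4 ran from 5.35 to 12.6 CPM in sham and from 1.72 to 7.42 CPM at day 3. At day 7 Aspscr1 (TUG), the tether of GLUT4 vesicles, had 0.40 and Stx6 had 0.51 (adjusted p = 0.826 and 0.833).

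Of 14 transcription factors that act on Slc2a4, 6 were positive at day 3 (median -0.13) and 8 at day 7 (median 0.13). The MEF2 factors, which bind the GLUT4 promoter, differed in sign. Mef2a averaged 96.0 ± 14.2 CPM in sham and 136 ± 16.7 CPM at day 3 with no overlap (log2 0.50, SE 0.164; edgeR adjusted p = 0.403). Mef2c averaged 31.1 ± 5.09 CPM in sham and 20.05 ± 4.84 CPM at day 3 with no overlap (log2 -0.63, SE 0.286; adjusted p = 0.452). Of the 14 factors, 1 in each direction had no overlap at day 3, where 3.72% of all genes had none. Nr1h3, the liver X receptor α, had -0.36 at day 3 (edgeR adjusted p = 0.482). Cebpb had 1.08 and Mlxipl (ChREBP) 0.63 at day 7 (edgeR adjusted p = 0.844 and 0.857), each split between libraries. In day 7 libraries 1 to 3 Cebpb stood at 403, 121 and 60.9 CPM, and between 62.1 and 163 CPM in sham. Mlxipl stood at 35.9, 159 and 120 CPM in those libraries, and between 48.6 and 89.4 CPM in sham.

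The next lists hold transcripts that insulin lowers or raises. Whether they followed the pathway's output in these mice was not tested, since the data hold neither insulin levels nor phosphorylation. Of 13 FoxO-induced genes 8 were positive at day 3 (median 0.08) and 4 at day 7 (median -0.20). Pdk4, which blocks pyruvate oxidation, stood at 60.3, 203, 181 and 86.7 CPM in sham, at 2092, 2479.5, 1089, 888 and 230.1 CPM at day 3, and at 1710, 123 and 75.3 CPM at day 7. Every day 3 library was above every sham library, and at day 7 library 1 alone was (log2 3.35 at day 3, SE 0.965; unadjusted p = 0.00439, edgeR adjusted p = 0.403). The day 3 order has the same library, number 5, at the low end for Pdk4 and at the high end for Slc2a4. Pck1, the enzyme of glyceroneogenesis in fat, averaged 3255 ± 1466 CPM in sham and 945 ± 761 CPM at day 7 with no overlap (log2 -1.78; edgeR adjusted p = 0.632). Of the 13 genes, 1 had no overlap with sham at each day, higher at day 3 and lower at day 7. Among all genes, 3.72% had none at day 3 and 6.9% at day 7.

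Of the insulin-induced genes 10 of 11 were tested, and 6 were positive at day 3 (median 0.29) and 10 at day 7 (median 1.49), with 0 passing. At day 7, 5 had an unadjusted edgeR p under 0.05, where 6.26% of all genes had one. Groups did not overlap for 2 at day 7, where 6.9% of all genes had no overlap. The day 7 libraries were split. Srebf1 stood at 61.3, 913 and 738 CPM in libraries 1 to 3, and between 165 and 397 CPM in sham. Egr1 stood at 642, 87.9 and 23.4 CPM in those libraries, and between 18.7 and 187 CPM in sham. Acly, which makes cytosolic acetyl-CoA for fatty acid synthesis, stood at 99.1, 146, 114 and 141 CPM in sham, at 143, 140.0, 131, 146 and 176 CPM at day 3, and at 147, 2256 and 2009 CPM at day 7. Day 7 libraries 2 and 3 were far above all others, and library 1 stood just above the highest sham library (log2 3.56, SE 0.616; unadjusted p = 7.2e-05, edgeR adjusted p = 0.307). Fasn, the fatty acid synthase, stood at 115, 11608 and 10168 CPM in day 7 libraries 1 to 3 and between 190.4 and 826 CPM in sham (log2 3.98; adjusted p = 0.719). Hk2, the hexokinase that insulin induces in fat, averaged 78.6 ± 15.3 CPM in sham and 126 ± 9.22 CPM at day 7 with no overlap (log2 0.68; adjusted p = 0.768). In the same 2 libraries in which Acly and Fasn were high, Slc2a4 and Pik3r1 were above all of sham; Trarg1 was below it there and in library 1.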

How the data were processed

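The submitters' processing notes name Partek, STAR and DESeq2 and build mm39, without versions or roles. Per the file headers, the deposited table holds raw expected counts per gene and sample, normalized count signal, and the authors' p-values, FDR (p-value step-up) and log2 ratios. Counts were rounded. The labels name polyA RNA, the design text total RNA; strandedness is not stated. Its 18086 lines of per-sample values do not stand beside their genes. Each line was given the gene with its mean and maximum, within a relative tolerance of 3e-05; 18070 matched 1 gene and 16 were settled by neighbours, while 4065 genes had no values.

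Genes were kept by filterByExpr (minimum count 10) and tested with edgeR 4.0.16 (R 4.3.3; TMM, robust quasi-likelihood F-test, all 12 libraries, 1 coefficient per group), with Benjamini-Hochberg adjustment over 17012 genes at 0.05. Scores and correlations use log2 CPM with a prior count of 2. Correlation p-values come from 100000 permutations, ratio p-values from all regroupings (0.5 added to each count). Libraries came from separate mice. DESeq2 1.42.0, voom (limma 3.58.1), other filters, scalings and left-out libraries were alternatives. Replicate numbers did not pair libraries. Library totals limit the precision of single values; SEs reflect the spread between mice. The 9 genes and all lists were chosen with earlier results of these data known. Named genes are the 9, the ratio partners, up to 4 others per pathway list with the smallest p at each day (mean of at least 1 CPM), and the 3 most alike to each of the 9. Not every gene so chosen is described.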

Additional observations from a re-analysis of the deposited data

Results flagged for a closer look

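Of 28 groups of 4 or 5 libraries examined, 2 held a library far from the others by the share of the group's range that its gap takes up, where chance flags about 1 in 20 groups. Tbc1d4 was at 96.6 CPM in day 3 library 5 and between 17.7 and 35.3 CPM in the other 4 (gap share 0.777, limit 0.710). The log2 ratio of Akt2 to Akt1 was 1.5 in that library and between -0.15 and 0.29 in the others (gap share 0.734). The same library had the highest adipocyte score of the 12, 0.85; its part in these values was not tested.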

How the results depend on the processing

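Over the alternatives to the edgeR analysis, none of the 9 genes passed an adjusted p of 0.05 in any comparison; 495 of their 513 recomputed differences kept their sign and 18 reversed. The number of genes called at day 3 was 1, and 122 with DESeq2, 0 with voom, 0 with the replicate block, 0 without sham library 4 and day 3 library 1, and 0 to 2 when single libraries were left out. At day 7 it was 0, and 70 with DESeq2, 15 with voom and 0 to 3 with single libraries left out (3 without day 7 library 1). Between the days it was 0, and 22, 2 and 0 to 4. The cause of these differences in number was not tested. Voom turned Insr at day 3 to -0.0017 and Irs2 at day 7 to -0.78. Without sham library 4 and day 3 library 1, Insr at day 3 was -0.026 and the ratio of Insr to Igf1r 0.013. The replicate block turned Akt1 between the days to -0.0302; deviations of same-numbered libraries correlated between -0.371 and 0.187. Among the sign changes with single libraries left out, the log2 difference ran from -0.131 to 0.141 for Insr and -0.847 to 0.139 for Pik3r1 at day 3. It ran from -0.249 to 0.893 for Irs2, -0.167 to 0.822 for Slc2a4 and -1.08 to 0.144 for Tbc1d4 at day 7. Between the days it ran from -0.0982 to 0.687 for Irs1, -1.16 to 0.0026 for Irs2, -0.024 to 0.189 for Akt1 and -0.204 to 0.470 for Akt2. Ratios ran at day 3 from -0.123 to 0.107 (Insr to Igf1r). At day 7 they ran from -0.296 to 1.48 (Irs1 to Irs2), -4.57 to 0.066 (Slc2a4 to Slc2a1), -2.06 to 1.14 (Trarg1 to Slc2a4) and -0.527 to 0.199 (Insr to Igf1r). Between the days they ran from -0.388 to 0.472 (Akt2 to Akt1), -1.85 to 2.79 (Slc2a4 to Slc2a1), -2.71 to 0.495 (Trarg1 to Slc2a4) and -0.524 to 0.202 (Insr to Igf1r). The lowest count of any of the 9 genes in a library was 72 (Slc2a4, day 7 library 1), and counting error bears most on that value.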
